A study of Homo sapiens with 4 samples.

Results

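The endothelin genes of MCF10A cells are described here: the ligands EDN1 and EDN2, the converting enzymes ECE1 and ECE2, and the receptors EDNRA and EDNRB. MCF10A is an established human breast epithelial cell line that does not form tumours. All cells stably carried a scramble shRNA, used as a control without an intended target, and grew in medium with EGF, cholera toxin, insulin, hydrocortisone and horse serum. The 2 control libraries were taken at 0 h, and the 2 treated libraries after 1.5 h with TGF-β1 at 5 ng/ml in the same medium. No untreated library was taken at 1.5 h, so TGF-β1 and the 1.5 h of time and handling cannot be told apart. The 6 genes were found by matching the transcript identifiers of the tables to GENCODE release 29, and they make up 6 of 34500 matched genes. Of their 39 transcripts in the tables, 13 had a value above 0 in any library. The genes were chosen by measured values, the difference of their levels between TGF-β1 and control, so their values in that comparison are given as a description and carry no test.

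Endothelins are short peptides that constrict blood vessels and also act on epithelial cells, fibroblasts and melanocytes. Each is cut from a longer precursor, first by furin-type proteases to an inactive big endothelin and then by an endothelin-converting enzyme to the mature peptide. The mature peptides bind the G-protein-coupled receptors ETA (EDNRA) and ETB (EDNRB), which raise calcium through Gq proteins and phospholipase C. EDN1 is known as a target of TGF-β in endothelial cells, and its promoter is known to be bound by SMAD, AP-1 and GATA factors.

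EDN1 lies on chromosome 6 (12290363 to 12297194, plus strand, GRCh38) and EDN2 on chromosome 1 (41478775 to 41484673, minus strand). The stretches that encode the 2 mature peptides are shown because both ligands signal through the same receptors and differ little in their peptide. Both stretches lie in exon 2, at 12292433 to 12292495 for EDN1 and at 41484061 to 41484123 for EDN2, in the main protein-coding transcript of each gene in GENCODE release 29. They were located by the spacing of 4 cysteines with a final tryptophan, which matched once in each precursor. Codons for cysteine are in capitals.
EDN1 mature peptide, coding: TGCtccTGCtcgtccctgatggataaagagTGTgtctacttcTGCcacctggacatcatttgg
EDN2 mature peptide, coding: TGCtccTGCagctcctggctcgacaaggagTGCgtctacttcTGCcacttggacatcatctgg
The stretches differed in 12 of 63 bases and in 8 of 21 codons, and the encoded peptides differed in 2 of 21 residues, at positions 6 and 7 counted from the first cysteine.

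The 250 bases before the start site of each ligand gene are shown because the 2 ligand genes differed in how their levels compared between the groups. The sequences are those of RefSeq on GRCh38.p14, whose table matched 5 of the 6 genes, all but ECE2. The RefSeq start used lies 2 bases from the GENCODE start of EDN1 and 12 bases from that of EDN2. Capitals mark matches, on either strand, to 5 short motifs: TATAA (the core of a TATA box), TGANTCA (AP-1), CAGAC (a SMAD-binding element), GATAA (GATA factors) and ACGTG (the core of a hypoxia-response element). None of the matches overlapped another.
EDN1, chr6:12290111-12290360, plus strand: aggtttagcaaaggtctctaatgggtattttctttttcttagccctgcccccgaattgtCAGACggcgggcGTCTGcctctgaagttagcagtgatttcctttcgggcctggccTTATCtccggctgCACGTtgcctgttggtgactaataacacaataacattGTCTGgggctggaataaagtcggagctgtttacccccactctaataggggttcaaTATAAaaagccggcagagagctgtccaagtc
EDN2, chr1:41484684-41484933, minus strand: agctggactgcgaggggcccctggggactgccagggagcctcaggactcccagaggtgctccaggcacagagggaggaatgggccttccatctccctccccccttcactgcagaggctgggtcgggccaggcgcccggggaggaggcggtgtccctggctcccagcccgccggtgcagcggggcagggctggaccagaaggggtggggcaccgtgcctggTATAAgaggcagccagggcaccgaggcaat
The EDN1 window held TATAA starting 31 bases before the start site, CAGAC at 3 places (starting 191, 179 and 86 bases before it), GATAA at 1 and ACGTG at 1. It held no match to TGANTCA. The EDN2 window held TATAA starting 30 bases before the start site and no match to the other 4 motifs. In either window a missing match says only that these letters are not in it. Sites that depart from these letters were not searched for. Among 35116 windows of the same length before RefSeq start sites, 18.9% held TATAA, 6.57% TGANTCA, 38.0% CAGAC, 20.4% GATAA and 18.5% ACGTG. The G and C content was 49.2% in the EDN1 window and 70.8% in the EDN2 window.

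The libraries held 35737659 to 40792300 estimated counts. SMAD7, an inhibitory SMAD and known early target of TGF-β, was at 8.58 and 8.27 CPM (estimated counts scaled to the library size) in control replicates 1 and 2 and at 129 and 100.1 CPM in TGF-β1 replicates 1 and 2. Replicate number went with a wide difference in both groups: with treatment as a term, edgeR's quasi-likelihood test placed 2935 of 14774 genes higher (19.9%) and 3700 lower (25%) in the libraries numbered 2. All 8 mammary epithelial markers were above 1 TPM (a level scaled to the library and corrected for transcript length) in each library. They were KRT5, KRT14, KRT17, TP63, ITGA6, CDH1, EPCAM and KRT18, and not all of them are particular to basal cells. The 6 endothelial markers, of cells known to make much EDN1, summed to 1.69 to 1.95 TPM in the controls and to 1.46 to 1.68 TPM after TGF-β1, with VWF and CDH5 at 0.141 TPM or below. KDR (0.571 to 1.25 TPM over all libraries) and PECAM1 (0.312 to 0.860 TPM) made up most of each sum. The 4 melanocyte markers, of cells known to use EDNRB, summed to 1.55 to 4.60 TPM in the controls and 2.72 to 4.45 TPM after TGF-β1. The 5 fibroblast markers summed to 19.4 to 21.2 TPM in the controls and 25.9 to 28.2 TPM after TGF-β1. DCN made up most of that level, at 17.2 to 17.7 TPM in the controls and 19.0 to 21.3 TPM after TGF-β1, and COL1A1 was at 2.97 and 1.99 TPM in control replicates 1 and 2 and at 8.765 and 4.403 TPM in TGF-β1 replicates 1 and 2. The part of these markers in the results was not tested. The 4 smooth muscle markers summed to 7.91 to 9.22 TPM over all libraries, mostly ACTA2. The blood markers summed to 22.8 to 36.3 TPM, nearly all CD14, with CD3E listed at 0.

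EDN2, which encodes endothelin-2, was the member that differed most between the groups. Its estimated counts were 6 in control replicate 1, 35 in control replicate 2, 211 in TGF-β1 replicate 1 and 307 in TGF-β1 replicate 2. On the CPM scale these were 0.151, 0.956, 5.39 and 8.89. Both treated libraries lay above both controls, as they did in 7.87% of the 14774 tested genes, and the 2 controls also lay apart from each other. The exact 95% Poisson intervals of the control counts were 2.20 to 13.1 and 24.4 to 48.7 and did not overlap. They cover counting error only. The control mean was 0.553 ± 0.569 CPM and the TGF-β1 mean 7.14 ± 2.47 CPM (SD, n = 2 libraries in each group, as for each mean given here). The log2 fold change by edgeR was 3.69 ± 0.89 (SE), a 12.9-fold difference. Within replicates 1 the ratio was 35.7-fold and within replicates 2 it was 9.31-fold, and the first rests on a control of 6 counts. The edgeR log2 fold change of 3.69 became 5.53 without control replicate 2 and 2.90 without control replicate 1. Among the 14774 tested genes the log2 fold change of 3.69 ranked 11 from the highest. EDN2 was chosen by this difference, so its rank is a description only.

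**Figure D1:**
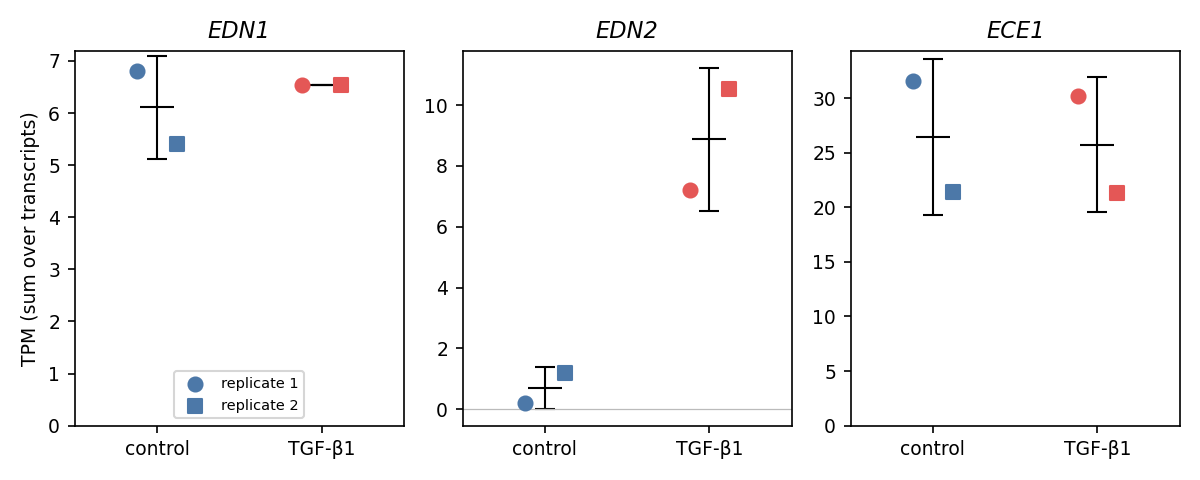
TPM summed over the transcripts of EDN1, EDN2 and ECE1 in each library (circles, replicate 1; squares, replicate 2; blue, control; red, TGF-β1), with the mean and SD of the 2 libraries as black bars. EDN2 sits at 0.215 and 1.18 TPM in the controls and at 7.21 and 10.5 TPM after TGF-β1, while the groups of EDN1 and of ECE1 overlap.

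Nearly all of the EDN2 signal was assigned to its protein-coding transcript. That transcript, of 1241 bases, held 100% of the gene's estimated counts in both libraries numbered 2 and 94.4% in TGF-β1 replicate 1. In control replicate 1 it held 81.0%, with the rest on a processed transcript of 800 bases, given 1.14 estimated counts there and 9.07 in TGF-β1 replicate 1. Another processed transcript, of 485 bases, was given 2.75 estimated counts in TGF-β1 replicate 1 and 0 elsewhere. The remaining 2 annotated EDN2 transcripts were listed at 0 in all libraries.

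EDN1, which encodes endothelin-1, the best known endothelin, had nearly the same level with and without TGF-β1. Its values were 9.44 and 7.64 CPM in control replicates 1 and 2 and 9.05 and 9.68 CPM in TGF-β1 replicates 1 and 2. The groups overlapped, and the lowest library was control replicate 2. The means were 8.54 ± 1.27 and 9.36 ± 0.442 CPM, a difference within the spread of the controls, and the log2 fold change by edgeR was 0.13 ± 0.20 (SE). Within replicates 1 the log2 ratio was -0.06 and within replicates 2 it was 0.34. The gene has 1 annotated transcript (2033 bases), so none of its counts had to be shared among transcripts of the gene.

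The balance of the 2 ligands differed between the groups. Per length, EDN1 was at 6.81 and 5.41 TPM in the controls and at 6.55 TPM in both treated libraries. In the controls EDN1 exceeded EDN2 31.7-fold and 4.60-fold, in replicates 1 and 2. After TGF-β1 the EDN2 level was 1.10 and 1.61 times that of EDN1. EDN2 thus made up 3.06% and 17.9% of the summed ligand TPM in the controls and 52.4% and 61.7% after TGF-β1. The summed TPM of both ligands was 7.02 and 6.59 in the controls against 13.8 and 17.1 in the treated libraries. EDN3, the remaining endothelin gene, was listed at 0 in each library.

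**Figure D2:**
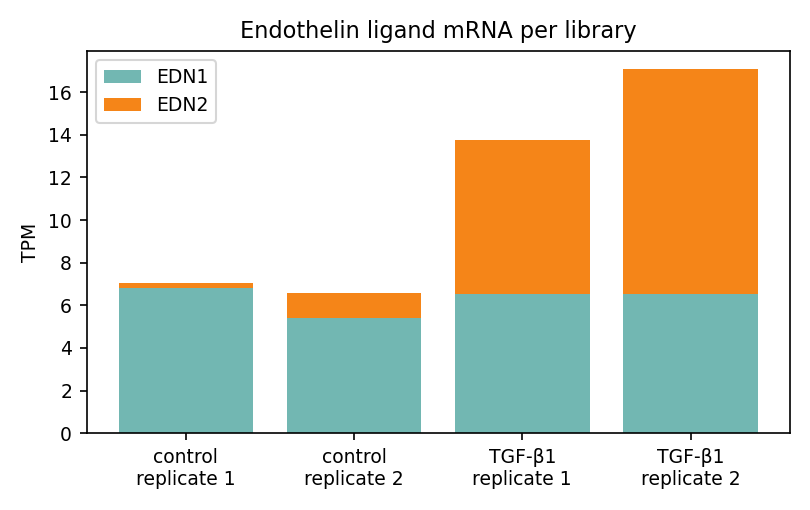
Stacked TPM of EDN1 (teal) and EDN2 (orange) in each library. The EDN1 part is between 5.41 and 6.81 TPM in all 4 libraries, and the EDN2 part makes up 3.06% and 17.9% of the bars of the controls and 52.4% and 61.7% of the bars after TGF-β1.

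ECE1, a membrane zinc protease that converts big endothelins to the mature peptides, had the highest level of the 6 genes. It lies on chromosome 1 (21217247 to 21345572, minus strand). Its values were 94.5 and 62.95 CPM in control replicates 1 and 2 and 85.6 and 66.9 CPM in TGF-β1 replicates 1 and 2. The groups overlapped fully, with means of 78.7 ± 22.3 and 76.3 ± 13.2 CPM and a log2 fold change of -0.05 ± 0.25 (SE) by edgeR. The spread followed the replicate number and not the treatment: within both groups the library numbered 2 was the lower one.

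The difference between replicate numbers was not the comparison by which the members were chosen, and was tested with treatment as a term. Both comparisons use the same libraries. The low EDN2 count of control replicate 1 enters both, so the EDN2 call between replicate numbers is not free of that choice. ECE1 was lower in the libraries numbered 2, with a log2 fold change of -0.47 ± 0.07 (SE; edgeR's quasi-likelihood test, Benjamini-Hochberg adjusted p = 0.00146 over all genes), where 25% of tested genes were called lower. EDN2 was higher in the libraries numbered 2 (log2 fold change 1.11 ± 0.34, SE; adjusted p = 0.0358 by edgeR's quasi-likelihood test), where 19.9% of tested genes were called higher. That call was lost with RLE scaling (adjusted p = 0.058 by edgeR) and without the treatment term (0.83, adjusted p = 0.695 by edgeR). Without that term and with 1 library left out, the log2 fold change was -0.14 (control replicate 1 left out) and 1.67 (control replicate 2). It was 4.98 with TGF-β1 replicate 1 left out and -1.54 with TGF-β1 replicate 2 left out. In these 4 fits replicate number was not balanced over treatment. They cannot tell the difference between replicate numbers from that between the groups, and nothing is read from them. The log2 difference of EDN2 between replicate numbers was 2.66 within the controls and 0.72 within the treated libraries, and the gap between these values was not tested, since 4 libraries leave no degree of freedom for it. EDN1 was not called (-0.10 ± 0.13, SE; adjusted p = 0.557 by edgeR). DESeq2's Wald test gave adjusted p = 0.000134 for ECE1, 0.0222 for EDN2 and 0.818 for EDN1, and called 9.32% of its 13741 genes higher and 16.3% lower, so calls were common among genes at large. The summed melanocyte markers were 4.60 and 4.45 TPM in the libraries numbered 2 and 1.55 and 2.72 TPM in those numbered 1, and the summed blood markers 36.3 and 35.0 against 26.0 and 22.8 TPM. Their part in the difference between replicate numbers was not tested.

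Of 13 ECE1 transcripts in the tables, 8 had values above 0 and 3 held at least 5% of the gene's TPM in any library. The longest, of 5099 bases, starts near the upstream end of the gene. It was at 20.4 and 12.96 TPM in control replicates 1 and 2 and at 17.8 and 13.6 TPM in TGF-β1 replicates 1 and 2. The transcript of 2484 bases, which starts 55015 bases further downstream, was at 9.54, 6.87, 8.22 and 5.73 TPM in the same order. The transcript of 2381 bases, which starts 55247 bases downstream of the longest, was at 0.727, 1.26, 2.85 and 1.42 TPM. The longest took 59.2% to 64.8% of the gene's TPM and the 2484-base transcript took 26.8% to 32.1%, so the order of these 2 transcripts was the same in each library. The share of the 2381-base transcript was 2.31% and 5.89% in the controls and 9.47% and 6.64% after TGF-β1. By share of estimated counts these 3 shares were 76.3% to 79.6%, 15.7% to 19.1% and 1.27% to 5.47%. The transcripts overlap in the genome, so the split rests on the estimation that divides their common reads.

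**Figure D3:**
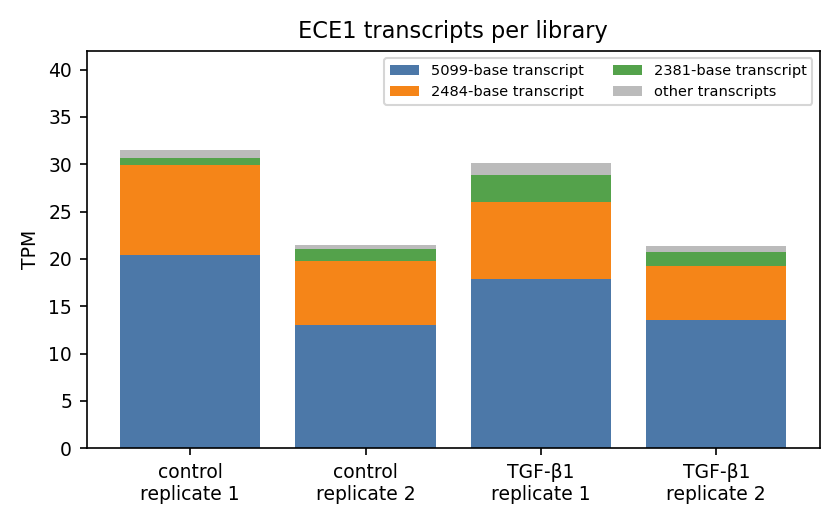
Stacked TPM of the ECE1 transcripts in each library: 5099 bases (blue), 2484 bases (orange), 2381 bases (green) and all others (grey). The bars of replicates 1 reach 31.5 and 30.1 TPM and those of replicates 2 reach 21.4 TPM in both groups, with the 5099-base transcript as the largest part of each.

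The second converting enzyme and both receptors were at or near 0. ECE2 (chromosome 3, 184276011 to 184293031) was listed at 0 in all 9 of its transcripts in each library. Its readthrough partner EEF1AKMT4-ECE2, which shares exons with it, was given 1.23 estimated counts in control replicate 2 and 0 in the others. EEF1AKMT4, at the upstream end of the same locus, was at 26.9 and 30.7 CPM in control replicates 1 and 2 and at 26.3 and 34.4 CPM in TGF-β1 replicates 1 and 2. EDNRA (chromosome 4, 147480917 to 147544954), the ETA receptor, had 1 estimated count in TGF-β1 replicate 1, on a processed transcript of 2186 bases, and 0 elsewhere. EDNRB (chromosome 13, 77895481 to 77975529), the ETB receptor, was listed at 0 in the 4 of its 9 annotated transcripts that the tables hold. A count of 0 allows up to 3 counts (a rounded one-sided 95% limit), or 0.0755 to 0.0869 CPM in these libraries. The upper end of the exact two-sided 95% Poisson interval, as given for EDN2, is 3.69 counts, or 0.0928 to 0.107 CPM. No fold change can be given for these 3 genes, which were not detectable in either group at this depth, apart from the single EDNRA count. In bulk RNA, fewer cells that express a gene and less of its RNA per cell cannot be told apart.

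By TPM the order in both controls was ECE1, EDN1, EDN2, and in both treated libraries it was ECE1, EDN2, EDN1, with ECE2, EDNRA and EDNRB at or near 0 in all. ECE1 exceeded both ligands in each library. EDN2 and EDN1 did not differ beyond their spread after TGF-β1, at means of 8.88 ± 2.35 TPM for EDN2 and 6.55 TPM in both libraries for EDN1. Of the protein-coding genes, 31.1% and 40.3% lay below EDN2 in the controls, against 54.7% and 61.2% after TGF-β1. For EDN1 these shares were between 51.9% and 54.7% in all libraries, and for ECE1 between 72.9% and 78.6%.

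Only 3 of the 6 genes (EDN1, EDN2 and ECE1) passed the filter on low counts. DESeq2's Wald test, an alternative to edgeR, called 1 of these 3 (EDN2), where 0.458% of all its 19649 genes were called and 0.422% were called higher. Without TGF-β1 replicate 2 the count was 0. The members were chosen by this comparison. EDN2 also passed the filter with most of its counts in the treated libraries (211 and 307, against 6 and 35 in the controls). So nothing is read from the number of calls. By edgeR's quasi-likelihood test 0 of 14774 genes were called (0%), and before adjustment p was under 0.05 for 1.34% (higher) and 0.386% (lower) of genes.

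The other genes of the pathway came from 5 lists with 81 genes beside the members, of which 63 passed the filter. DESeq2 called 7 of 71 with an adjusted p higher and 0 lower, against 0.422% and 0.0356% of all genes, and edgeR called 0. Before adjustment, 7 had p under 0.05 by edgeR, and each of these was higher. Their median log2 fold change was 0.05, against -0.01 over all tested genes. These counts are from fits without a replicate block, as are those given list by list. With the replicate number as a block, edgeR and DESeq2 each called 11 listed genes, 9 higher and 2 lower. Among all genes the blocked fits also called more: edgeR 335 (259 higher, 76 lower) and DESeq2 245 (194 higher, 51 lower). The shares given above are not the background of these 11. The lists were written with earlier results of these data known, so the counts are descriptions.

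Among proteases that act on precursors, neither DESeq2 nor edgeR called any of 6 tested genes, and 0 had an edgeR p under 0.05 before adjustment. FURIN, which cuts proendothelin to big endothelin, was at 115 and 92.4 CPM in control replicates 1 and 2 and at 144 and 116 CPM in TGF-β1 replicates 1 and 2. Both treated libraries lay above both controls, TGF-β1 replicate 2 only just. The log2 ratio of FURIN was 0.325 within replicates 1 and 0.327 within replicates 2. In the fit without a replicate block its log2 fold change of 0.33 ± 0.18 (SE) did not pass. Of 7 genes for M13 and other endothelin-cleaving proteases, 3 were tested and 0 were called by DESeq2 or edgeR, also 0 without adjustment in edgeR. PHEX, an M13 protease of bone, had a log2 fold change of 0.21 ± 0.32 (SE). MME, the endothelin-degrading protease neprilysin, was named after its values were seen. Its controls were at 52.6 and 104 CPM and its treated libraries at 52.1 and 106 CPM, so its 2 libraries numbered 2 lay about equally far above those numbered 1 (log2 fold change 1.00 between replicate numbers, adjusted p = 3.86e-05 by edgeR). MME thus went the other way from ECE1 between replicate numbers. CTSA, of the same list, was lower in the libraries numbered 2 like ECE1 (log2 fold change -0.34, adjusted p = 0.00178 by edgeR). Such calls were common among genes at large.

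Of 28 genes for receptor signalling and desensitisation, 27 were tested. Without a replicate block, neither DESeq2 nor edgeR called any of them, 0 had an edgeR p under 0.05 before adjustment, and the median log2 fold change was 0.01. Without TGF-β1 replicate 2, RGS2, a regulator that shortens G-protein signals, was called lower by DESeq2 (adjusted p = 0.0488). RGS16, which shortens G-protein signals like RGS2, had the smallest p of the list. Its controls were at 4.76 and 10.2 CPM and its treated libraries at 2.10 and 4.23 CPM, with a log2 fold change of -1.25 ± 0.55 (SE) that did not pass. Its values were lower after TGF-β1 within both replicate numbers, with log2 ratios of -1.18 and -1.28.

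Of 22 transcription factors known to act on the EDN1 promoter, DESeq2 called 6, each higher, and edgeR called 0 of 21. In edgeR 6 of the 21 had p under 0.05 before adjustment, each of them higher. The 6 were JUN, JUNB, FOS and FOSB, all subunits of AP-1, with GATA2 and KLF4. GATA2, a zinc-finger factor that binds the EDN1 promoter in endothelial cells, was at 3.70 and 3.66 CPM in control replicates 1 and 2 and at 13.2 and 9.73 CPM in TGF-β1 replicates 1 and 2. Its groups did not overlap, and its log2 fold change was 1.64 ± 0.24 (SE; DESeq2 adjusted p = 0.000171, edgeR adjusted p = 0.67). KLF4, a Krüppel-like factor, was at 8.63 and 7.59 CPM against 22.1 and 20.1 CPM (log2 fold change 1.38 ± 0.16, SE; DESeq2 adjusted p = 2.87e-05, edgeR adjusted p = 0.368). JUN and JUNB were called by DESeq2 without each library in turn. GATA2 was called only without TGF-β1 replicate 2 and KLF4 only without control replicate 1. FOS lost its call without control replicate 1 and also without TGF-β1 replicate 2, and FOSB lost it without TGF-β1 replicate 1. SMAD3, SMAD4 and HIF1A had log2 fold changes of 0.16, -0.03 and 0.06 and did not pass. EDN1 itself stood at 0.13 on the same scale.

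Of 18 other vasoactive and secreted peptides, 8 were listed at 0 in all libraries and 6 were tested. VEGFA, the vascular endothelial growth factor, was the 1 gene that DESeq2 called, and it was higher. EdgeR called 0, and 1 had p under 0.05 before adjustment. Its controls were at 55.7 and 35.4 CPM and its treated libraries at 173 and 137 CPM, with no overlap (DESeq2 adjusted p = 1.11e-05, edgeR adjusted p = 0.731). VEGFA was called by DESeq2 without each library in turn.

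**Figure D4:**
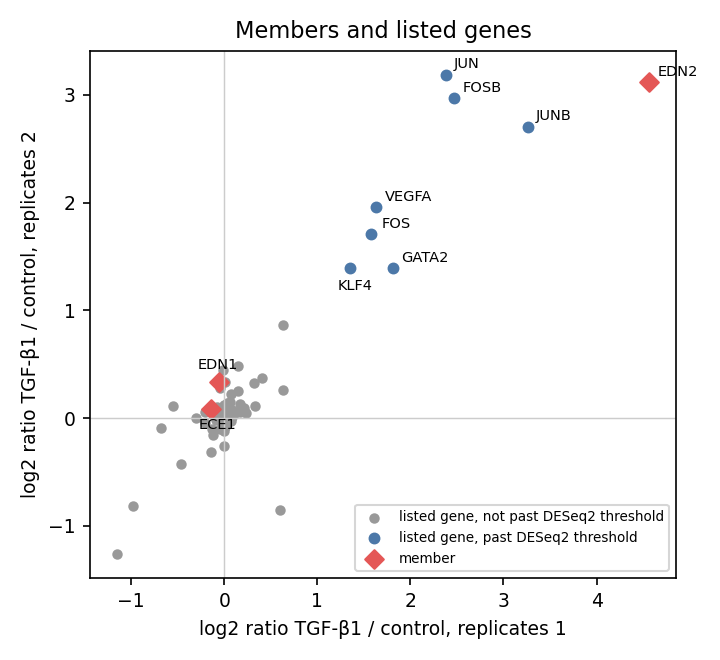
Log2 ratio of TGF-β1 to control within replicates 1 (x axis) and within replicates 2 (y axis), from log2 CPM with a prior count of 3, for the 3 tested members (red diamonds) and the 63 tested genes of the pathway lists (blue, past DESeq2's threshold; grey, not). EDN2 and the 7 blue genes lie at the upper right, and EDN1 and ECE1 lie near 0 on both axes.

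Neither DESeq2 nor edgeR called any of the genes beside the ligands. EDN2 lies 21692 bases from HIVEP3 and 95185 bases from FOXO6, and EDN1 lies 125364 bases from HIVEP1, so each of the 2 ligand genes has a member of the HIVEP family of zinc-finger genes as a neighbour. HIVEP3 was at 0.68 and 0.519 CPM in control replicates 1 and 2 and at 0.102 and 0.29 CPM in TGF-β1 replicates 1 and 2, the opposite direction to EDN2. In 8.34% of tested genes both treated libraries likewise lay below both controls. The log2 fold change of HIVEP3 was -1.62 ± 0.63 (SE) and passed neither test. FOXO6 was listed at or near 0 in all libraries. HIVEP1 was at 18.1 and 16.8 CPM without and at 22.1 and 19.6 CPM with TGF-β1 (log2 fold change 0.26 ± 0.14, SE, not past either test). On the other side of EDN1, PHACTR1 was below 0.5 CPM in each library. The neighbours of ECE1, EIF4G3 and NBPF3, had log2 fold changes of -0.01 and -0.12 and passed neither test. PSMD2, a proteasome gene 5678 bases beyond ECE2, was at 248 to 406 CPM, with the lower values in the libraries numbered 2, and CAMK2N2 on the other side was below 1 CPM. TMEM184C, beside EDNRA, was at 49.1 to 67.4 CPM with a log2 fold change of -0.06, and TTC29, SLAIN1 and POU4F1, beside the 2 receptor genes, had 1 count or fewer in each library.

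By Euclidean distance between centred log2 CPM profiles over the 4 libraries, the 5 tested genes most like EDN1 were SBF2, CDC14A, ZNF703, SSR4P1 and B4GALT3, at distances of 0.0235 to 0.0721. Their log2 fold changes with TGF-β1 ran from 0.10 to 0.22, near that of EDN1 because they were chosen by these same values.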

How the data were processed

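RNA of 2 control and 2 TGF-β1 libraries was read as paired ends. Per the submitters' processing notes the authors used kallisto on GRCh38; which release and transcript set they took is not given in the sources used here. Deposited tables hold estimated counts and TPM per transcript, with transcript and effective lengths, per the file headers. Of 173259 transcripts, 91.9% matched GENCODE release 29, and counts were summed per gene and rounded. Unmatched transcripts held 2.24% to 2.38% of counts.

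Genes kept by filterByExpr (14774) were compared with edgeR 4.0.16 in R 4.3.3 (quasi-likelihood test, TMM scaling, no covariate; for replicate numbers, treatment as a term), with Benjamini-Hochberg adjustment and a threshold of 0.05. Standard errors were derived from the F statistic. Alternatives were DESeq2 1.42.0, limma 3.58.1 on log2(TPM + 1), other scalings and filters, the replicate block and each library left out. The fits were tested on simulated data. Labels call the libraries biological duplicates.

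The members and lists were chosen with earlier results of these data known. Named genes were the members, up to 5 DESeq2 calls per list or otherwise the smallest edgeR p, nearest protein-coding neighbours and the 5 profiles nearest to EDN1. FOS, a 6th call of its list, and other listed genes given by value were named after their values were seen. Motif and peptide positions were found by search.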

Additional observations from a re-analysis of the deposited data

How the results depend on the processing

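EDN2 was chosen by its difference between TGF-β1 and control, so the positive sign of that difference in each setting run is a description only. Its log2 fold change with TGF-β1 ran from 2.58 on log2(TPM + 1) to 5.53. It was 5.16 within replicates 1, and it ran from 2.90 to 5.53 when each library was left out. That of EDN1 was -0.0605 within replicates 1 and 0.34 within replicates 2, and ran from -0.0108 to 0.30 without each library. Between replicate numbers, EDN2 was at 1.11 with RLE scaling (adjusted p = 0.058 by edgeR) and at 0.83 without the treatment term (adjusted p = 0.695 by edgeR). It was at 2.66 within the controls and at 0.72 within the treated libraries. Without the treatment term and, in turn, control replicates 1 and 2 and TGF-β1 replicates 1 and 2, it was at -0.14, 1.67, 4.98 and -1.54. Those fits cannot tell replicate number from treatment, since the libraries left are not balanced. EDN1 was at -0.30 within the controls and 0.10 within the treated libraries. ECE1 kept its direction and its call between replicate numbers in each tested setting that kept all libraries. The unbalanced fits are not read for ECE1 either.

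The count of genes called with TGF-β1, 0 by edgeR, was 90 by DESeq2, 15 without a filter, and 8 to 25 by edgeR without each library. By DESeq2 it was 67, 62, 46 and 71 without control replicates 1 and 2 and TGF-β1 replicates 1 and 2. For the listed pathway genes it was 7 by DESeq2, 2 without a filter, 0 to 2 by edgeR without each library and 5, 5, 4 and 6 by DESeq2 in the same order. With the replicate number as a block, edgeR called 335 genes and DESeq2 245, and each fit called 11 listed genes, 9 higher and 2 lower. The replicate numbers share only a number in the labels. The differences between replicate numbers correlated between the groups over 14774 genes (r = 0.68). Between replicate numbers, 6635 genes were called, 3513 by DESeq2, 4175 at a threshold of 0.01, and 4041, 3011, 3952 and 3052 without the treatment term and each library in that order. The cause of these shifts was not tested. Depth limits EDN2 in control replicate 1 (6 counts) and ECE2, EDNRA and EDNRB in all libraries.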

Other observations

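The genes whose profile over the 4 libraries was most like that of EDN2 were looked up after its values were seen. By the same Euclidean distance they were OVOL1, JUNB, AC011462.1, FAM43A and WNT3, at distances of 1.26 to 1.50. The distance is not scaled to the range of a profile, so these values cannot be compared with those for EDN1. OVOL1, a zinc-finger factor of epithelial cells, was at 1.54 and 2.24 CPM in control replicates 1 and 2 and at 30.7 and 31.9 CPM in TGF-β1 replicates 1 and 2. FAM43A was at 2.92 and 5.90 CPM in the controls and at 22.5 and 30.4 CPM after TGF-β1, with the higher value in the library numbered 2 in both groups, as for EDN2. That likeness follows from the choice by profile. WNT3, a WNT ligand, was at 0 and 0.382 CPM in the controls and at 0.588 and 1.48 CPM after TGF-β1; neither DESeq2 nor edgeR called it.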
